A study of Mus musculus with 6 samples.

Results

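The genes described here sense double-stranded RNA or belong to the interferon response, and were measured in differentiating mouse embryonic stem cells in which a hairpin against Geminin had been switched on. They were the 9 genes Mx1, Isg15, Ifit1, Irf1, Irf7, Irf9, Eif2ak2, Ifih1 and B2m, and every probe set annotated to exactly 1 of these symbols was taken, which gave 11 of the 45037 probe sets on the array. Of the 9 genes 8 had such a probe set, among 18193 genes that had one. Isg15 had none, because its 1 probe set is annotated together with another gene, and it is not analysed here.

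Total RNA came from derivatives of E14TG2a, a mouse embryonic stem cell line of 129P2 background, after 2 days in N2B27, which contains no serum and lets such cells turn towards neural fate. The knockdown cultures (GemKD) received doxycycline (Dox, 500 ng as the labels give it), which switches on a Geminin hairpin built into a microRNA backbone (shRNAmir), and the control cultures of the same line carried the same uninduced hairpin and had no Dox. There were 3 independent experiments with 1 GemKD and 1 control culture each, hybridised to 1 Affymetrix Mouse Genome 430 2.0 array each: shRNAmir 11 was used in experiments 1 and 3 and shRNAmir 9, in a separate line, in experiment 2. No culture had Dox without a Geminin hairpin, so effects of Dox, of expressing a hairpin and of losing Geminin cannot be told apart. The labels do not say whether a line is 1 clone.

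RNA in the form of long double strands is a sign of viral infection. In the cytoplasm it is recognised by sensors such as MDA5, and by the kinase PKR, which halts protein synthesis, and the sensors switch on type I interferon genes. Secreted interferon then acts through its receptor to raise many interferon-stimulated genes, most of them through a DNA element called the ISRE, while interferon gamma acts through the GAS element. Small hairpins can set off this response as a side effect, and embryonic stem cells are known for a weak interferon response.

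The promoters of these genes show which of them carry these elements. Sequences from 250 bases before to 50 bases after each gene's start were taken from RefSeq (GRCm38.p6) for 8 of the 9 genes, 10 promoters in all. They were searched on both strands for GAAANNGAAA, the core of the ISRE, and for TTCNNNGAA, the GAS. The ISRE core was in promoters of 5 of the 8 genes (Isg15, Ifit1, Eif2ak2, Ifih1 and B2m) and in 3.44% of all 32851 promoters, and the GAS was in promoters of 2 (Irf1 and Eif2ak2) and in 8.30% of all. Irf7 and Irf9 had neither within these windows. The following stretches, 5′ to 3′ along the gene with the matches in capitals, are from the genes whose measured values are set out below.
Irf1, chr11:53769884-53769972, plus strand, with the GAS: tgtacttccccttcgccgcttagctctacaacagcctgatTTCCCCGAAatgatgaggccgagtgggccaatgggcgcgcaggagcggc
B2m, chr2:122147508-122147597, plus strand, with an ISRE core: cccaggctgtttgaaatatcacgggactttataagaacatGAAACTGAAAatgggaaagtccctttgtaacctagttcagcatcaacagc
Ifit1, chr19:34640745-34640853, plus strand, with 2 ISRE cores in the opposite orientation: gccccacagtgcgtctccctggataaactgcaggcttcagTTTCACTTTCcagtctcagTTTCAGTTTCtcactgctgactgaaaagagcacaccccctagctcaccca
Eif2ak2, chr17:78882535-78882564, minus strand, with an ISRE core just after the start: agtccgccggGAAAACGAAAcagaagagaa
The match in Irf1 lies 90 to 82 bases before the start and that in B2m 139 to 130 bases before it. These matches describe the letters in the window and say nothing of binding in these cells.

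The arrays were on a common scale, with median signals between 59.3 and 60.9, and precision is limited by there being only 6 of them. Gmnn, the gene of Geminin, had 27.6%, 48.0% and 36.7% of its control signal in the GemKD arrays of experiments 1, 2 and 3, in the direction the labels give. The cells are labelled as neurectoderm, and all 6 early neural and all 6 pluripotency markers had signals above the limit for testing. Of the 7 immune markers with a probe set 5 were above it too, Cd68 with a mean of 313, Csf1r 112, Itgam 67.0, Cd14 56.1 and Cd74 45.0, while Fcgr1 with 14.8 and Ptprc with 9.51 were below it. Genes of mature tissues such as pancreas, muscle and lymphocytes served to show the signal of genes presumed silent, and their 35 probe sets had a median of 12.6, a 75th percentile of 25.6 and a 90th percentile of 39.3, with a highest mean of 185. Probe sets with a mean signal above 20.1, the 30th percentile of all, were tested, 31526 in total. Values for tests were log2 of the signal plus 16, a scale on which differences of dim probe sets are understated. Both arrays of experiment 3 stood apart from the others, with an SD of the log2 difference to any array of experiments 1 and 2 of 0.41 to 0.43, against 0.22 to 0.29 between arrays of the same experiment.

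Of the 11 probe sets 8, from the 5 genes B2m, Irf1, Eif2ak2, Irf9 and Mx1, were above the limit. Those of Irf7, Ifit1 and Ifih1 were near background. Irf7, which amplifies the transcription of interferon genes, had signals of 5.80, 1 and 4.37 in the GemKD arrays of experiments 1, 2 and 3, and 1.35, 7.29 and 6.98 in the controls. Ifih1, which encodes the RNA sensor MDA5, had 14.7, 8.51 and 14.7 in GemKD, against 15.7, 17.0 and 15.8 in the controls. Ifit1, whose product binds foreign RNA ends and is among the genes most strongly raised by interferon, had 8.61, 13.5 and 2.56 in GemKD, against 18.4, 17.8 and 21.9 in the controls. For Ifit1 and Ifih1 every GemKD array lay below every control array, as for 2.27% of tested probe sets, but 5 of the 6 control signals of these genes and all 6 GemKD signals were under the limit for testing. In a fit over all 45037 probe sets the log2 difference of Ifit1 was -0.57 (95% interval -1.01 to -0.13, unadjusted p = 0.0170, limma adjusted p = 1), that of Ifih1 -0.17 and that of Irf7 -0.10. All 9 GemKD signals of these 3 genes were under the limit for testing.

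**Figure D1:**
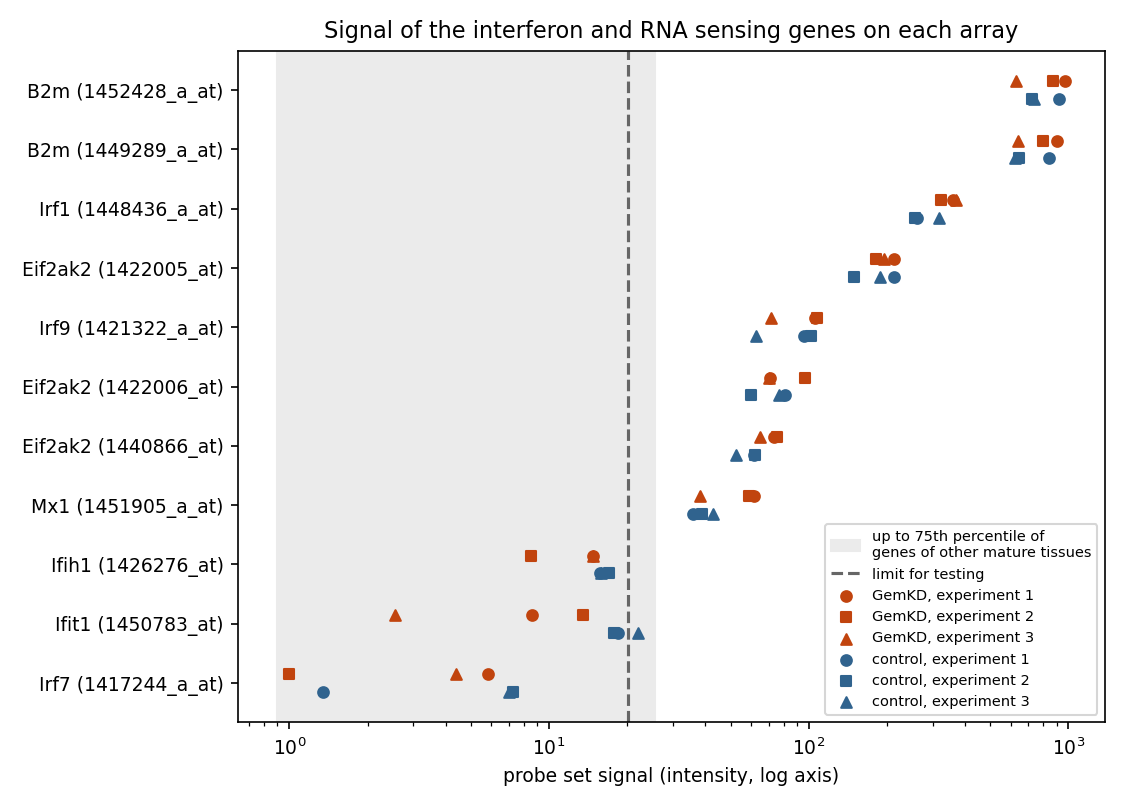
Signal of the 11 probe sets on each array (log axis), with GemKD drawn above control in each row and the experiment given by the symbol. The dashed line is the limit for testing at 20.1, and the grey area ends at 25.6, the 75th percentile of genes of other mature tissues. Irf7, Ifit1 and Ifih1 lie in the grey area, and B2m is the brightest.

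The comparison of GemKD with control asks whether inducing the hairpins was accompanied by an interferon response. None of the 8 tested probe sets passed in limma, with or without the experiment as a block. Gmnn itself, with a log2 difference of -1.44, did not pass without the block (adjusted p = 0.296) and passed with it (adjusted p = 4.03e-04), so a missed threshold in the unblocked fit does not show that a gene was unaffected. Of all probe sets tested, the unblocked fit called 0.00317% and the blocked fit 0.00952%. Irf1 was nearest to a call, and was the 1 member with an unadjusted p under 0.05 in either fit, which 1.1% of all tested probe sets had without and 4.62% with the block. All 8 had a positive log2 difference, with a median of 0.13 against 0.01 over all tested probe sets, where 55.0% were positive. They are 5 genes, since Eif2ak2 has 3 probe sets and B2m 2, and were not drawn independently. The untested Ifit1, Ifih1 and Irf7, near background, had negative differences (-0.57, -0.17 and -0.10).

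Irf1 encodes a transcription factor that is itself induced by interferon gamma and by other signals that reach its GAS, shown above, and it drives genes of antigen presentation. Its probe set 1448436_a_at had signals of 361, 322 and 370 in GemKD in experiments 1, 2 and 3, and 261, 257 and 317 in the controls. Every GemKD array was higher than every control array, a separation that 2.83% of tested probe sets showed, though the lowest GemKD and the highest control signal differed by only 4.67. The means were 351 ± 25.7 in GemKD and 278 ± 33.8 in control (SD, n = 3 each). The log2 difference was 0.32 (SE 0.13, 95% interval 0.03 to 0.62), a fold of 1.25, with log2 ratios of 0.45, 0.31 and 0.21 in experiments 1, 2 and 3. It did not pass over all probe sets (limma adjusted p = 0.99999, unadjusted p = 0.0370; with the experiment as a block SE 0.09, adjusted p = 0.992, unadjusted p = 0.00545, rank 152 of 31526). An exact two-sided permutation test, which leaves out the pairing by experiment, gave p = 0.1, the smallest that 3 arrays against 3 allow. Any complete separation of the groups gives this value.

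Mx1 encodes an interferon-induced GTPase that blocks influenza viruses and is defective in many laboratory mouse strains. Its probe set 1451905_a_at had 61.7, 58.7 and 38.1 in GemKD, against 35.9, 38.9 and 42.7 in the controls. The GemKD arrays of experiments 1 and 2 were the brightest, while in experiment 3 the GemKD array was below its control, so the groups overlapped. The log2 difference was 0.30 (SE 0.18, 95% interval -0.11 to 0.72), with log2 ratios of 0.58, 0.45 and -0.12. It was 0.21, 0.23 and 0.47 without the GemKD array of experiment 1, 2 or 3, and 0.16, 0.23 and 0.51 without the whole of each experiment. It did not pass (limma adjusted p = 0.99999, with the block 0.992), and 3 of the 6 signals were under 39.3, the 90th percentile of the genes of mature tissues.

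Eif2ak2 encodes PKR, the kinase that binds double-stranded RNA and phosphorylates the initiation factor eIF2 alpha, and is itself raised by interferon. Its 3 probe sets did not move together. The brightest, 1422005_at, had 213, 181 and 195 in GemKD, against 213, 150 and 189 in the controls, with log2 ratios of 0.005, 0.25 and 0.04. Probe set 1422006_at had 71.1, 96.4 and 70.0 in GemKD, against 81.1, 60.0 and 76.8 in the controls, so it was higher in experiment 2 (log2 ratio 0.57) and lower in experiments 1 and 3 (-0.16 and -0.11). Probe set 1440866_at had 73.2, 75.3 and 64.9 in GemKD, against 61.6, 62.3 and 52.5 in the controls, with log2 ratios of 0.20, 0.22 and 0.24. In this last one the GemKD arrays all lay above the controls, by 2.52 at the closest. The log2 differences were 0.10 (95% interval -0.26 to 0.45), 0.10 (-0.29 to 0.49) and 0.22 (-0.10 to 0.54) in the same order, and none passed.

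Irf9 encodes the DNA-binding subunit of ISGF3, the complex that binds the ISRE. Its signals were 106, 108 and 71.5 in GemKD, against 95.5, 102 and 62.4 in the controls. It was higher in GemKD in each of the 3 experiments, by log2 ratios of 0.12, 0.07 and 0.16. The level differed more between experiments than between the arms. Its log2 difference was 0.12 (95% interval -0.38 to 0.61, with the block -0.15 to 0.39). B2m encodes beta-2 microglobulin, the light chain of MHC class I molecules. Its probe set 1452428_a_at had 973, 868 and 628 in GemKD, against 921, 725 and 737 in the controls, and 1449289_a_at had 904, 798 and 640, against 845, 648 and 621. The first was lower in the GemKD array of experiment 3 (log2 ratios 0.08, 0.25 and -0.23) and the second was higher in all experiments (0.10, 0.29 and 0.04). Their log2 differences were 0.04 (95% interval -0.37 to 0.44, with the block -0.16 to 0.23) and 0.14 (-0.23 to 0.52, with the block -0.03 to 0.31). Of the 8 tested probe sets 5, from the 4 genes Irf1, Irf9, Eif2ak2 and B2m, were higher in all 3 experiments, as were 13.5% of all tested. None was lower in all 3, which 10.5% of all tested were.

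**Figure D2:**
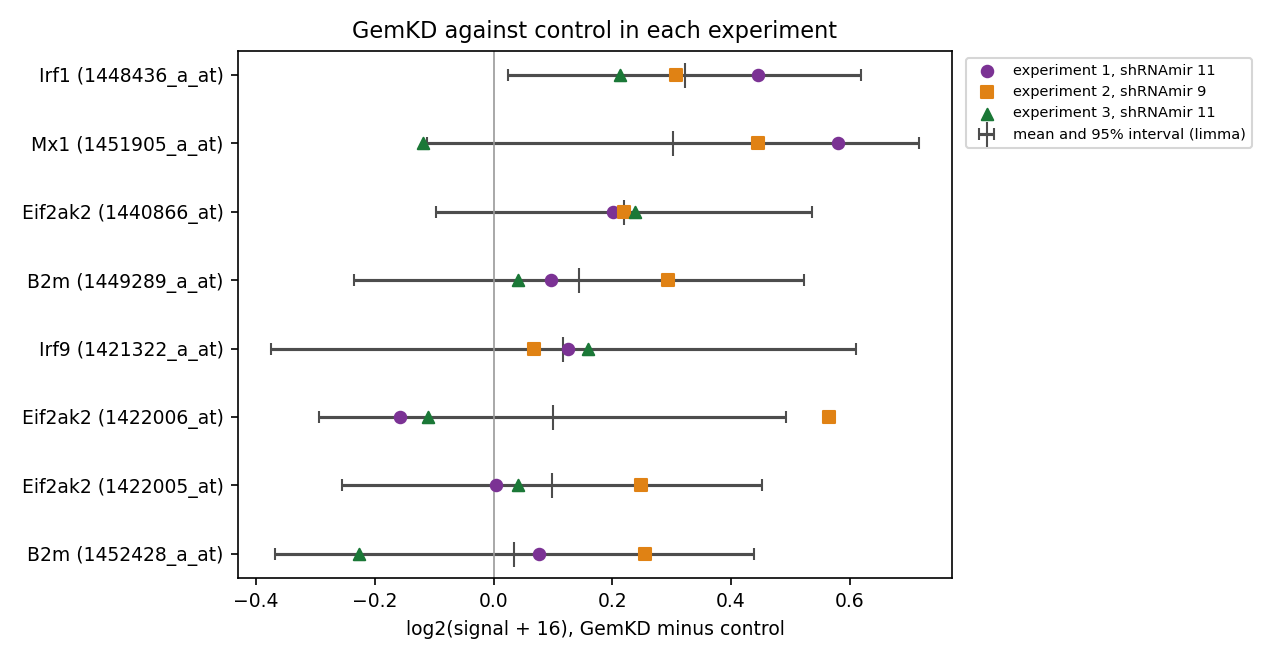
Difference of log2(signal + 16) between GemKD and control in each experiment (symbols) for the 8 tested probe sets, with the mean and its 95% interval in limma without the block (n = 3 arrays per group). Irf1 has the highest mean, 0.32, and its interval alone lies above 0, before any adjustment over probe sets.

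The 2 hairpins were then set side by side. Under shRNAmir 9, in experiment 2, all 8 tested probe sets were higher in GemKD, with log2 ratios between 0.07 and 0.57 and a median of 0.27, where 48.3% of all tested probe sets were higher. Under shRNAmir 11, 7 of 8 were higher in experiment 1 (median 0.11, range -0.16 to 0.58) and 5 of 8 in experiment 3 (median 0.04, range -0.23 to 0.24), where 48.8% and 57.7% of all were. Among the untested members, near background, Ifit1 had log2 ratios of -0.48, -0.20 and -1.03 in experiments 1, 2 and 3. Irf7 had 0.33, -0.45 and -0.17, and Ifih1 had -0.05, -0.43 and -0.05, so under shRNAmir 9 these genes were lower in GemKD. As there was 1 experiment with shRNAmir 9, its values have no replicate check. The difference between the hairpins was fitted as an interaction of hairpin and induction in limma, which assumes the shRNAmir 9 arrays to vary like the others. It was called for none of the 8 probe sets. In simulated data the unblocked fit called 0% of 2-fold and 0% of 4-fold changes, so its lack of calls decides nothing. The fit blocked by experiment called 38.4% and 97.8% of them. Of all probe sets the unblocked fit called 0% and the fit blocked by experiment 0.336%, and 0.663% and 4.32% had an unadjusted p under 0.05. The largest difference among them was that of Eif2ak2 probe set 1422006_at, with 0.70 (effect of shRNAmir 9 minus effect of shRNAmir 11). Its 95% interval was -0.15 to 1.55 without the block (limma unadjusted p = 0.0895, adjusted p = 0.99999). With the block it was 0.04 to 1.35 (unadjusted p = 0.0372, adjusted p = 0.99986). The other probe sets of Eif2ak2 had 0.23 (-0.61 to 1.06, with the block -0.30 to 0.75) and 0.00 (-0.90 to 0.90, with the block -0.68 to 0.68). These intervals are wide, and do not show that the hairpins act alike. For shRNAmir 11 alone, in experiments 1 and 3, none of the 8 was called either with or without the block, against 0% of all probe sets without and 0.0381% with it (0.587% and 3.72% at an unadjusted p under 0.05). Irf1 had a log2 difference of 0.33 there. Its 95% interval was -0.14 to 0.80 without the block (limma unadjusted p = 0.138) and 0.06 to 0.60 with it (unadjusted p = 0.0195).

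Other genes of the same pathways were taken as 4 lists of 95 genes, of which 88 had a probe set of 1 symbol and 72 a tested one, with 123 tested probe sets. None of the 123 was called in limma with or without the block, and 1 and 5 had an unadjusted p under 0.05. Their median log2 difference was 0.04, with 73 positive, 15 higher in all 3 experiments and 9 lower in all 3. Over all probe sets these shares were 13.5% and 10.5%. Canonical interferon-stimulated effectors, the list nearest to a readout of interferon, had a median of -0.01, with 18 of 38 tested probe sets positive. That list had 62 probe sets of 36 genes, and 11 of these genes had none above the limit, so they do not enter the median.

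Among sensors and adaptors (29 tested probe sets of 17 genes, 21 positive, median 0.05), the gene with the largest difference was Ikbke, a kinase that activates interferon regulatory factors, at -0.32, with 26.2, 26.5 and 23.1 in GemKD and 30.4, 34.2 and 42.1 in the controls, so every GemKD array was below every control. Tlr3, the endosomal receptor for double-stranded RNA, had 0.25, with 96.0, 81.5 and 71.3 in GemKD and 70.9, 63.1 and 66.1 in the controls. Its GemKD arrays all lay above the controls, by 0.49 at the closest, and without the GemKD array of experiment 1 the difference was 0.16. Of all tested probe sets, 2.83% had every GemKD array above every control and 2.27% had every one below. Oas1a, an RNA-activated synthetase of the antiviral 2-5A messenger, had -0.22 at signals between 14.6 and 43.4, and -0.030 without the GemKD array or -0.047 without the control array of experiment 1. The interferon genes themselves were dim. Ifnb1, the interferon beta gene that sensors switch on first, had 44.1, 25.1 and 28.1 in GemKD, against 29.5, 39.6 and 47.1 in the controls (log2 difference -0.18), and Ifna4 had 17.1, 15.5 and 16.5, against 22.95, 18.2 and 37.0 (-0.35, with every GemKD array below every control). In that list of ligands, receptors and transducers (30 tested probe sets of 17 genes, 18 positive, median 0.06), Jak2, a kinase that relays interferon gamma and other cytokine signals, had 0.31, with 164, 159 and 149 in GemKD and 142, 118 and 112 in the controls (unadjusted p with the block 0.0166, adjusted p = 0.992). Without the control array of experiment 3 Ifnb1 had -0.074 and Ifna4 -0.17. Ifnb1 also had -0.075 without the GemKD array of experiment 2, and -0.35 or -0.31 without the GemKD or the control array of experiment 1.

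Among the effectors, Parp14, a mono-ADP-ribosyltransferase, had -0.50, with 16.7, 12.8 and 20.7 in GemKD and 17.9, 28.3 and 49.7 in the controls, at or near the limit for testing on most arrays (unadjusted p with the block 0.0335, adjusted p = 0.992). It had -0.22 over the mean of its probe sets and -0.25 without the control array of experiment 3. Ifit2, a relative of Ifit1, had -0.28, with 56.3, 56.1 and 113 in GemKD and 83.1, 82.3 and 108 in the controls. Without the GemKD array of experiment 1, 2 or 3 it had -0.14, -0.14 and -0.56, and without the control array of experiment 3 -0.17. The guanylate-binding protein gene Gbp2 had -0.28, with 47.0, 37.3 and 22.7 in GemKD and 46.6, 41.6 and 48.0 in the controls. Its value rested on the GemKD array of experiment 3, without which it was -0.082, it was -0.43 without the GemKD array of experiment 1, and over the mean of its probe sets it was -0.11. In antigen presentation (26 tested probe sets of 13 genes, 16 positive, median 0.03), the peptide transporter genes Tap2 and Tap1 had -0.43 and -0.18 and their regulator Nlrc5 had -0.30. Tap1 had 124, 130 and 213 in GemKD, against 141, 187 and 200 in the controls, while the mean over all its probe sets had 0.14. Single arrays moved each of these values. Tap2 had -0.18 without the GemKD array of experiment 2 and -0.26 without the control array of experiment 1, and Nlrc5 had -0.16 without the GemKD array of experiment 1 and -0.19 without the control array of experiment 3. Tap1 had -0.056, -0.087 and -0.41 without the GemKD arrays of experiments 1, 2 and 3, and -0.32 and -0.092 without the control arrays of experiments 1 and 3. None of these genes passed.

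**Figure D3:**
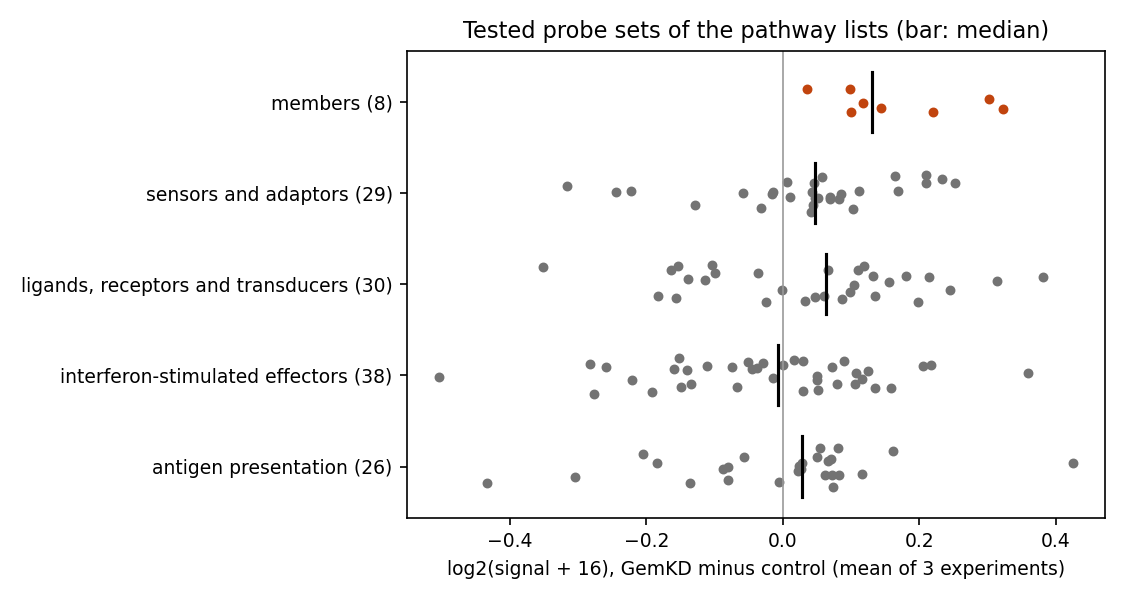
Difference of log2(signal + 16) between GemKD and control, the mean of 3 experiments, for tested probe sets only. The rows are the members, of which 5 genes were tested, and the 4 lists. Numbers of probe sets are in brackets, and a bar marks the median. All 8 tested probe sets of the members lie above 0, with a median of 0.13. The untested Ifit1, Ifih1 and Irf7, near background and with negative differences (-0.57, -0.17 and -0.10), are not drawn. The medians of the lists lie between -0.01 and 0.06.

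The members' levels also differed between experiments, in both arms. Experiment 3 was set against the mean of experiments 1 and 2 with induction as a covariate. As experiment 3 is 1 experiment, its p-values cover only the spread between arrays within experiments. Of the 8 tested probe sets 3 were called lower there and 0 higher, where 15.9% of all probe sets were called lower and 10.6% higher. Irf9 was lower, with 71.5 and 62.4 in the GemKD and control arrays of experiment 3, against 95.5 to 108 in the other 4 arrays (log2 difference -0.52, SE 0.13, limma adjusted p = 0.0125). Leaving out the experiment 3 control ended the call of Irf9 (adjusted p = 0.0534). Both probe sets of B2m were lower, 1452428_a_at by -0.34 (SE 0.10, adjusted p = 0.0221) and 1449289_a_at by -0.32 (SE 0.08, adjusted p = 0.0139). Their calls were lost without the GemKD array of experiment 2 (adjusted p = 0.0676 and 0.0603) or of experiment 3 (0.312 and 0.107), and without the intensity trend (0.132 and 0.0838). That of 1452428_a_at was also lost with quantile normalization (0.0655) and without the filter (0.0560). In Irf9 and in 1449289_a_at both arrays of experiment 3 lay below the other 4, as in 25.7% of tested probe sets. Irf1 had 0.20 (95% interval -0.02 to 0.42), Mx1 -0.18 (-0.58 to 0.23) and the probe sets of Eif2ak2 between -0.17 and 0.03, none past the threshold.

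Cell type markers differed along with it, but not all in 1 direction. The summed signal of the 6 pluripotency markers was 10550 to 10930 in experiment 3 and 13803 to 15823 in experiments 1 and 2, that of the 6 early neural markers 8889 to 9274 and 10860 to 11172, and that of the 6 fibroblast markers 857 to 953 and 1483 to 1677. Within these sums Sox1 had 523 to 577 in experiment 3, against 2108 to 2443 in experiments 1 and 2, and Pax6 had 135 to 158, against 614 to 823. Otx2 was on the other side, with 2737 to 2781 in experiment 3 and 1227 to 1685 in experiments 1 and 2, as was Fgf5, with 577 to 664 and 93.8 to 161. Pou5f1 was at a like level, with 7338 to 7403 in experiment 3 and 7387 to 7711 in experiments 1 and 2. Other pluripotency markers were lower in experiment 3. Nanog had 288 to 341, against 1565 to 2434, Zfp42 1745 to 1992, against 3827 to 4838, and Klf4 82.1 to 108, against 332 to 441. Esrrb was at a like level in its brightest probe set (454 to 486, against 423 to 537) and lower in another (63.9 to 93.3, against 235 to 415). The 7 immune markers gave 638 to 670 in experiment 3 and 573 to 652 in experiments 1 and 2, with Cd68 the largest part. Their part in the lower level of Irf9 and B2m was not tested, and fewer cells of a type and less RNA per cell cannot be told apart in such cultures. In the arms, the sums of immune markers were 573 to 670 in GemKD and 590 to 652 in control.

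Of the 30 tested probe sets of interferon ligands, receptors and transducers 11 were called lower in experiment 3 and 0 higher, with a median of -0.29, where 15.9% of all probe sets were called lower. The other 19 did not pass, among them Jak2 at -0.14, Ifna4 at 0.28 and Ifnb1 at 0.08. The feedback inhibitor Socs3 had 66.6 and 62.9 in the GemKD and control arrays of experiment 3, against 177 to 231 in the other 4 (log2 difference -1.42, adjusted p = 1.30e-05), in a probe set that may share probes with related genes. Ifngr1, the ligand-binding chain of the interferon gamma receptor, had 237 and 201, against 435 to 487 (-1.03, adjusted p = 2.27e-05), and the receptor kinase Jak1 had 546 and 545, against 892 to 1057 (-0.86, adjusted p = 2.67e-05). For the counts of the other lists, the shares over all tested probe sets were 10.6% called higher and 15.9% called lower. Of 38 probe sets of effectors 7 were called higher and 3 lower, with a median of 0.15. Among them Rsad2, the antiviral protein viperin, had 0.61 (adjusted p = 0.00962) and Ifit2 0.58 (adjusted p = 0.0157), while Oasl1 had 0.63 and did not pass (adjusted p = 0.0926). Oasl1, a relative of the 2-5A synthetases, had 61.8, 39.3 and 139 in GemKD, against 55.1, 76.1 and 65.8 in the controls, so its GemKD log2 ratios were 0.13, -0.74 and 0.92 in experiments 1, 2 and 3. Without the GemKD array of experiment 3 its experiment 3 value was 0.016, without that of experiment 2 it was 0.31, and it passed without the control array of experiment 2 or 3 (0.95 and 1.24, adjusted p = 3.89e-04 and 0.00507). The calls of Rsad2 and Ifit2 were lost without the intensity trend (adjusted p = 0.0521 and 0.0603), that of Rsad2 also without the experiment 3 control (0.0909) or over the mean of its probe sets (0.0827), and that of Ifit2 without the experiment 3 GemKD array (0.211) or the filter (0.0540). Of 29 probe sets of sensors and adaptors 3 were called higher and 4 lower, near the shares over all probe sets. There Oas2 had -1.03 (adjusted p = 0.00451; 0.0583 without the control array of experiment 3), the antiviral RNA-binding protein gene Zc3hav1 -0.97 in its brightest probe set and -0.28 over the mean of its probe sets (adjusted p = 4.92e-05 and 0.0707), and Trim25, a ubiquitin ligase of RNA sensing, 0.48 (adjusted p = 6.35e-04). Of 26 probe sets of antigen presentation 2 were called higher and 5 lower, also not far from those shares. Tap1 had 0.48 and the immunoproteasome subunit Psmb10 0.39 (limma adjusted p = 0.0205 and 0.0201). The class I heavy chain H2-K1 had -0.37 (limma adjusted p = 0.00374), in a probe set that may share probes with related genes. The calls of Tap1, Psmb10 and H2-K1 were lost without the intensity trend (adjusted p = 0.0832, 0.120 and 0.0574). That of Tap1 was also lost without the GemKD array of experiment 2 or 3 (0.0715 and 0.230), without the filter (0.0595) or over the mean of its probe sets (0.452), that of Psmb10 without the control array of experiment 1 or 3 (0.0855 and 0.149) or the filter (0.0532), and that of H2-K1 over the mean of its probe sets (0.0732).

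**Figure D4:**
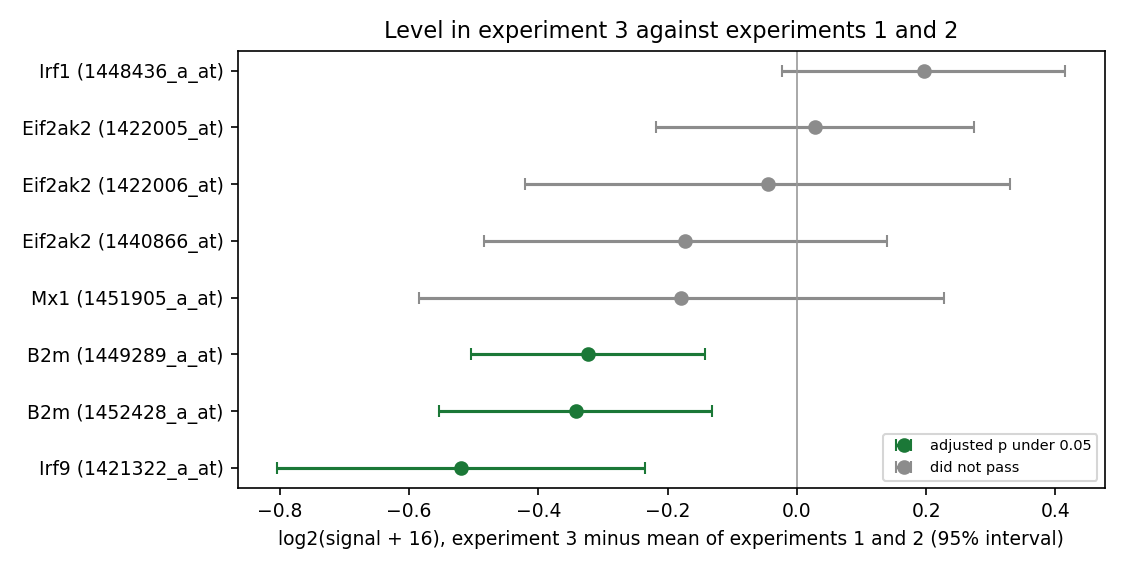
Difference of log2(signal + 16) between experiment 3 and the mean of experiments 1 and 2 for the 8 tested probe sets, with 95% intervals from limma (2 arrays against 4). Irf9 at -0.52 and the 2 probe sets of B2m at -0.34 and -0.32 have an adjusted p under 0.05 and are drawn in green.

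Irf9 had the widest range over the 6 arrays among the tested members, 0.66 on the log2 scale. The genes whose log2 values followed it most closely were Zfp568, Aff4 and Cdc42se2, with Pearson's r of 0.999, 0.998 and 0.997 over 6 arrays and 14184 genes compared. As 2128 genes had an r above 0.9 with it, and the arrays share the split between experiment 3 and the others, this is a description only.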

How the data were processed

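The authors deposited 1 intensity per probe set and array, on a linear scale. How these values were background-corrected and normalized, and with which software, is not given in the sources used here. Columns had medians between 5.89 and 5.93 on the log2 scale, so nothing was renormalized. Gene symbols came from GEO's platform annotation (34945 with 1 symbol, 932 with several, 9160 with none). All 11 member probe sets kept their symbol in a RefSeq table of GRCm38.p6.

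Tests used limma 3.58.1 (R 4.3.3) with an intensity trend and a threshold of 0.05 on the Benjamini-Hochberg adjusted p, two-sided, over all 31526 probe sets with a mean above the 30th percentile, on log2 of the signal plus 16. The experiment number marks arrays of 1 independent experiment and so pairs them. Deviations from the group means correlated by 0.43, 0.38 and 0.66 within experiments 1, 2 and 3. Between experiments 1 and 2 they correlated by 0.39 and 0.26, and between experiment 3 and the others by -0.54 to -0.41. These values do not set the pairs of experiments 1 and 2 clearly apart. The block was an alternative. The others were quantile normalization, no filter or the 50th percentile, a pseudocount of 1 or 64, no trend, 1 value per gene (the brightest probe set or the mean), and leaving out each array or experiment.

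The fits were tested on simulated data with known changes, with noise set to the spread within experiments. Without the block the GemKD fit called 46.2% of 2-fold and 94.6% of 4-fold changes, and with it 97.4% and 100%. The fit of experiment 3 called 97.4% and 100%.

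Members, lists and tests were chosen with earlier results of these data known. Named were all member probe sets, Gmnn, up to 3 genes of each list by size of the GemKD difference and up to 3 by that of experiment 3, and 3 genes most like the member of widest range.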

Additional observations from a re-analysis of the deposited data

How the results depend on the processing

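No member was called in the GemKD comparison or for shRNAmir 11 alone under any alternative run, the replicate block included. For the hairpin difference none was called with the replicate block, and the fits without it say nothing of stability, since in simulated data they made no call. No probe set of the lists was called in the GemKD comparison under any of them. The number of all probe sets called was 1, and 3 with the replicate block, 0 without the intensity trend, and 0 to 1 without single arrays or experiments. With the replicate block it was 17, 12 and 13 without experiments 1, 2 and 3. The 3 calls of members in experiment 3 became 1 without the intensity trend and 1 to 3 without single arrays.

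Differences near 0 changed sign. Without single arrays or experiments the GemKD difference ranged from -0.066 to 0.28 for Irf9, -0.029 to 0.20 for Eif2ak2 1422005_at, -0.13 to 0.23 for 1422006_at, -0.095 to 0.21 for B2m 1452428_a_at and -0.46 to 0.14 for Oas1a. With the replicate block it was 0.14 for Oas1a without experiment 1, and -0.13 for 1422006_at and -0.075 for B2m 1452428_a_at without experiment 2. Over the mean of its probe sets Tap1 had 0.14. The hairpin difference was 0.0020 for Irf1 with quantile normalization and -0.0048 for Eif2ak2 1440866_at with a pseudocount of 1. In experiment 3, without single arrays, Mx1 ranged from -0.49 to 0.14, Eif2ak2 1422005_at from -0.028 to 0.085 (-0.063 over the mean of its probe sets) and 1422006_at from -0.22 to 0.13. The cause of these changes was not tested.

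The median 95% half-width of a member's log2 difference was 0.39 without and 0.25 with the block, and a difference has to exceed it further to pass after adjustment over all probe sets, as Irf1 with the block did not. Values near background carry little information on expression.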
